A study of Mus musculus with 18 samples.

Results

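Cxcl1, Cxcl2, Cxcl3, Cxcl5 and Cxcl15 encode secreted CXC chemokines that attract neutrophils. These 5 genes were chosen by name, with earlier results of these data known. They were found in the tables of both cell lines examined, among 24335 genes in EA1 and 24320 in EA2. EA1 (p53 wild type) and EA2 (p53 null) are murine lung cancer lines of the C57BL/6 strain that carry the Eml4-Alk fusion, which an Adeno-Cre virus induced in the tumors they come from. The in vitro libraries (5 of EA1, 3 of EA2) come from cells passaged in RPMI-1640 with serum while the tumors grew. The in vivo libraries (5 of each line) come from the left lung of male C57BL/6 mice, 8 to 12 weeks old, that express GFP. The mice received 200000 EA1 or 500000 EA2 cells, tumors grew for 4 weeks, and the tumor-bearing lungs of 3 to 5 mice were pooled, digested with enzymes and sorted for GFP-negative cells. Digestion and sorting are described for tumors only, so their effect cannot be told apart from that of growth in the lung. Each p53 state is represented by 1 line, so p53 and line cannot be told apart either.

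Chemokines of this family carry a Glu-Leu-Arg (ELR) motif ahead of the first cysteines, bind the receptor Cxcr2 on neutrophils and draw these cells out of the blood. In epithelial and stromal cells, IL-1, TNF, IL-17 and bacterial products induce their genes through NF-kappaB, which binds kappaB sites in the promoters. Several of their mRNAs are short-lived because decay proteins such as tristetraprolin (Zfp36) bind AU-rich elements in them. Cxcl15, also called lungkine, is known in mice as a chemokine of the lung epithelium.

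The 5 genes lie in 1 cluster on chromosome 5, with the platelet chemokine genes Ppbp and Pf4 between them. In the GRCm38 annotation (GENCODE M21) the 7 genes span 146.6 kb, all on the plus strand. Cxcl5 (chr5:90759360-90761624) comes first, followed by Ppbp, Pf4, Cxcl3 (chr5:90786103-90789600) and Cxcl15 (chr5:90794534-90803067), with Cxcl1 (chr5:90891241-90893115) and Cxcl2 (chr5:90903871-90905938) at the far end. Each of the 5 has 4 exons in its main transcript.

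The ELR codons are what the 5 genes share as a family, so a stretch of each coding sequence around them is shown, with these codons in capitals (GENCODE M21, 5′ to 3′).
Cxcl1: gccaatGAGCTGCGCtgtcagtgcctgcag
Cxcl2: gccagtGAACTGCGCtgtcaatgcctgaag
Cxcl3: gccagtGAGCTGCGCtgtcagtgcctgaac
Cxcl5: gcaacgGAGCTGCGTtgtgtttgcttaacc
Cxcl15: actcaaGAGCTACGAtgtctgtgtattcag
The coding sequences of Cxcl2 and Cxcl3 were 89.8% identical, and their transcripts shared an unbroken run of 110 bases. Fragments of Cxcl2 and Cxcl3 can therefore be hard to assign, and how the authors' counting split them was not tested, so the values of this pair are uncertain. Cxcl1 was 75.6% identical to Cxcl2 and 72.6% to Cxcl3, with a longest shared run of 23 bases. All pairs with Cxcl5 or Cxcl15 were 40.2% to 50.0% identical.

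The promoters of 3 of the genes share a sequence of the type that NF-kappaB binds, whose factors are examined further on. GGGAATTTCCC was the longest run of bases common to the 250 bases before the start sites of Cxcl1, Cxcl2 and Cxcl3, and was thus picked from these genes. The stretch from 120 to 31 bases before the start site (RefSeq, GRCm38.p6, plus strand) is shown with GGGAATTTCCC in capitals, beside that of Cxcl15, which has no match.
Cxcl1, chr5:90891125-90891214: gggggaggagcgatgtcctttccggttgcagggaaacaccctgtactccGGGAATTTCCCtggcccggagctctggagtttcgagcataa
Cxcl2, chr5:90903779-90903868: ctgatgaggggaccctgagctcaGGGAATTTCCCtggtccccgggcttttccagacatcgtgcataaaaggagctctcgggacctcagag
Cxcl3, chr5:90785981-90786070: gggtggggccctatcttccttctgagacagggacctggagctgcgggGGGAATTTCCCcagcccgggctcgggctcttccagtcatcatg
Cxcl15, chr5:90794414-90794503: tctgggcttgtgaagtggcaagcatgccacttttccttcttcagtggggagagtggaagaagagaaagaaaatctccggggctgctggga
This run was searched on both strands in windows from 250 bases before to 50 after each start site. It began 71 bases before the start of Cxcl1, 97 before that of Cxcl2 and 73 before that of Cxcl3. Of 32851 promoter windows, 14 (0.0426%) held it, and those of Cxcl15, Ppbp and Pf4 did not. The Cxcl5 promoter was not analysed here. A match describes these letters only.

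All values are FPKM (fragment numbers scaled for gene length and library size). Each line was tested with limma on log2(FPKM + 1), with p-values adjusted over all genes of the line that reached 1 FPKM in 5 libraries (EA1) or 3 libraries (EA2). Changes are in vivo minus in vitro on that scale, which understates the change of low genes. FPKM carry no counts, so depth is unknown. The FPKM of all genes summed to between 475434 and 569388 in 16 libraries, but to 733184 and 717905 in EA2 in vitro libraries 1 and 3, so EA2 results are also given against EA2 in vitro library 2 alone. The lowest EA1 value is 0.01, where EA2 has 0. In these bulk samples, fewer cells of a type and less RNA per cell cannot be told apart. Of the lung epithelial markers, the keratin Krt18 was between 280 and 1440 FPKM in every library. Nkx2-1, the lung lineage factor, was at 0.01 or 0 in every in vitro library and at most 0.724 in vivo. Epcam, another of these markers, changed by 5.01 in EA1 (limma adjusted p = 2.08e-07), from a mean of 1.892 to 101.7 FPKM. In EA2 Epcam was at most 2.04 FPKM in any library. The keratin Krt8 changed by -0.81 in EA1 (limma adjusted p = 0.00214) and lay between 0.583 and 93.3 FPKM in EA2.

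In EA1, all 5 chemokine genes were higher in vivo than in vitro, with no overlap between the groups for any of them. Cxcl1, a chemokine with strong activity on Cxcr2, was the only member above 1 FPKM in EA1 cultures. Its in vitro libraries read 2.49, 3.17, 2.94, 4.16 and 3.25 FPKM, and its in vivo libraries 26.4, 42.1, 31.0, 43.2 and 114 FPKM. Every tumor library was therefore above every culture, with library 5 far above the other tumor libraries. The mean rose from 3.20 ± 0.610 to 51.3 ± 35.7 FPKM (SD, n = 5 each), 16.0-fold, and the log2 change was 3.44 (SE 0.32, limma adjusted p = 3.35e-06). Without tumor library 5 or any other single library, the change of Cxcl1 remained between 3.11 and 3.63.

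Cxcl5, a chemokine typical of epithelial cells, had the largest change of the 5 in EA1 on the log2(FPKM + 1) scale. It was at 0.733, 0.990, 0.249, 0.817 and 0.813 FPKM in vitro and at 29.9, 46.8, 49.4, 11.3 and 46.8 FPKM in vivo. All cultures were below 1 FPKM, and tumor library 4 was the lowest of the tumor libraries. The mean rose from 0.720 ± 0.280 to 36.8 ± 16.3 FPKM (SD, n = 5 each), a log2 change of 4.31 (SE 0.35, limma adjusted p = 1.21e-06). Of the 11212 EA1 genes tested, 0.945% had a larger rise on this scale. By the ratio of means, Cxcl5 rose 51.1-fold, less than Cxcl2 (107-fold), Cxcl3 (55.1-fold) and Cxcl15 (54.8-fold), which were near the floor in culture.

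Cxcl2, Cxcl3 and Cxcl15 were near the floor of the EA1 table in culture and reached single digits in tumors. Cxcl3, the near relative of Cxcl2, was at 0.0926, 0.0947, 0.111, 0.0321 and 0.0596 FPKM in vitro and at 5.10, 3.91, 4.70, 1.89 and 5.88 FPKM in vivo, a log2 change of 2.24 (SE 0.20, limma adjusted p = 2.29e-06). Cxcl2, also known as MIP-2 and made by many cell types on inflammatory stimulation, was at the floor of 0.01 in 4 cultures and at 0.0964 in library 4, against 1.21, 2.02, 2.47, 2.14 and 6.77 FPKM in tumors (log2 change 1.79, SE 0.27, limma adjusted p = 0.000124). For Cxcl2 and Cxcl3, as for Cxcl1, tumor library 5 held the highest value. Cxcl15 was at 0.113, 0.0146, 0.0662, 0.0425 and 0.0529 FPKM in vitro and at 1.55, 2.11, 5.81, 3.48 and 2.90 FPKM in vivo (log2 change 1.90, SE 0.22, limma adjusted p = 1.70e-05). Its highest tumor library was 3, not 5.

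**Figure D1:**
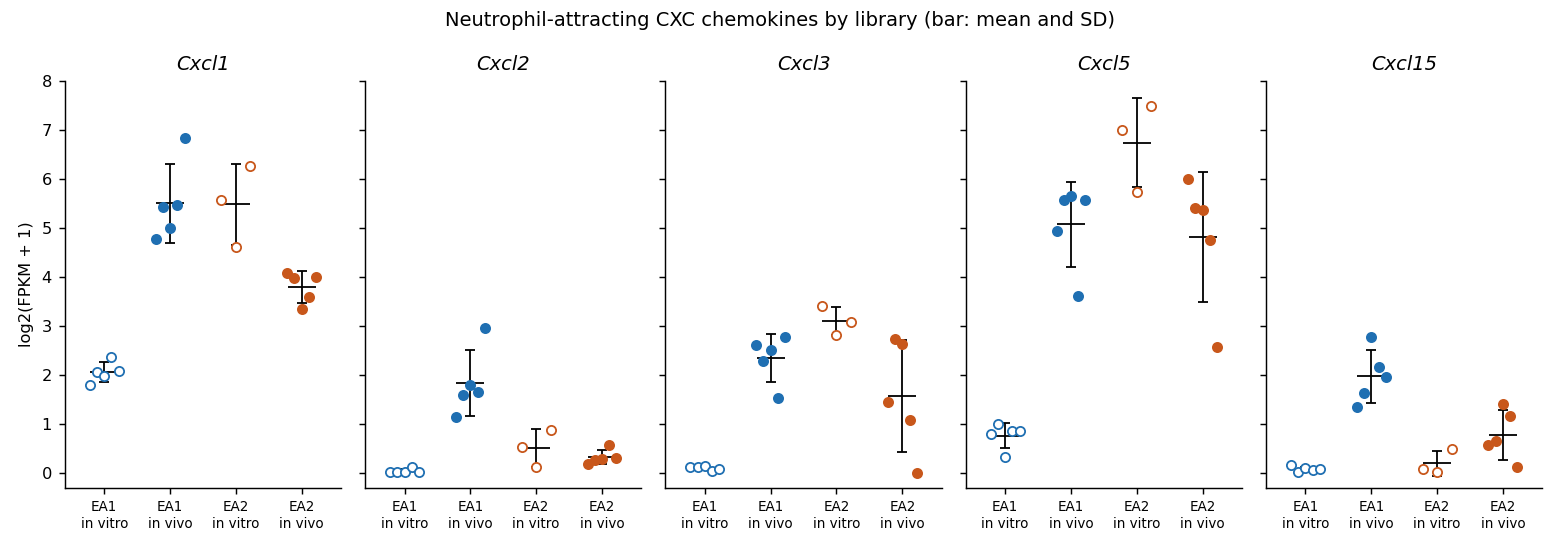
Expression of each chemokine gene as log2(FPKM + 1) on the vertical axis, with 1 point per library (open, in vitro; filled, in vivo; blue, EA1; orange, EA2) and bars for the mean and SD of each group. In EA1 all tumor points lie above all culture points for all 5 genes, while in EA2 the tumor points of Cxcl1 and Cxcl3 lie below the culture points and those of Cxcl2, Cxcl5 and Cxcl15 overlap with them.

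Read against all genes, calls in EA1 were common: limma called 30.9% of genes higher and 40.7% lower, and 25.3% were higher with no overlap. The median change of the 5 members was 2.24, beside -0.09 over all genes tested. Cxcl2, Cxcl3, Cxcl5 and Cxcl15 were below 1 FPKM in every culture and passed the filter only through their tumor values, so their being called adds nothing to how they were let in. When all 24335 genes were tested with no filter, the adjusted p of the 5 members lay between 2.76e-05 for Cxcl5 and 0.000966 for Cxcl2. The exact permutation test gave each of the 5 the smallest two-sided p that 5 against 5 libraries allows, 0.0079, and 31.4% of the genes tested were higher with an exact p under 0.05.

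In EA2 the order was the opposite for the abundant members. Cxcl1 and Cxcl5 were high in culture and lower in tumors. Cxcl1 was at 46.5, 23.5 and 76.0 FPKM in vitro and at 16.0, 14.8, 9.16, 11.0 and 15.0 FPKM in vivo. No tumor library reached the lowest culture, which was library 2. The mean was 48.7 ± 26.3 FPKM (SD, n = 3) in vitro and 13.2 ± 2.94 FPKM (SD, n = 5) in vivo, 3.69-fold lower. The log2 change of -1.69 (SE 0.33) was past the threshold (limma adjusted p = 0.00171, exact permutation p = 0.0179, the smallest possible here). Against EA2 in vitro library 2 alone, with its spread taken from the other group, Cxcl1 changed by -0.82 and was no longer called (limma adjusted p = 0.0800). In the fits that left out 1 library, it was called each time, with changes between -2.12 and -1.30.

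Cxcl5 was the most abundant chemokine of the 5 in EA2. It was at 127, 52.0 and 180 FPKM in vitro and at 62.9, 41.3, 40.5, 25.9 and 4.94 FPKM in vivo, so tumor library 1 was above the lowest culture and the groups overlapped. The mean was 119.5 ± 64.2 FPKM (SD, n = 3) in vitro and 35.1 ± 21.4 FPKM (SD, n = 5) in vivo. The log2 change of -1.92 (SE 0.67) was called by limma (adjusted p = 0.0308) but not by the exact permutation test (p = 0.0714). The call was lost in 7 of 17 alternative fits, among them those without in vitro library 1, in vitro library 3 or in vivo library 4 (limma adjusted p = 0.111, 0.125 and 0.0520), and against in vitro library 2 alone the change was -0.91 (limma adjusted p = 0.557).

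Cxcl3 was at 9.55, 6.04 and 7.51 FPKM in EA2 cultures and at 1.72, 5.62, 5.25, 1.12 and 0 FPKM in tumors. The groups did not overlap, although the gap between the lowest culture and the highest tumor library was small. Its log2 change was -1.52 (SE 0.54, limma adjusted p = 0.0318, exact permutation p = 0.0357). The limma call was lost in 10 of 17 alternative fits, among them those without each in vitro library in turn (adjusted p = 0.121, 0.0509 and 0.0779) and those without in vivo library 1 or 4 (adjusted p = 0.0563 and 0.0625). In the fit against in vitro library 2 alone the change was -1.24 (limma adjusted p = 0.354).

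Cxcl2 and Cxcl15 stayed near or below 1 FPKM in EA2 and did not pass the filter. Cxcl2 was at 0.439, 0.0832 and 0.840 FPKM in vitro and at 0.137, 0.200, 0.217, 0.485 and 0.233 FPKM in vivo, with overlapping groups and a difference of -0.19 (exact permutation p = 0.357). Without in vitro library 3 the difference of Cxcl2 was 0.00039. Cxcl15 was at 0.0557, 0.0141 and 0.401 FPKM in vitro and at 0.487, 0.573, 1.67, 1.23 and 0.0894 FPKM in vivo. Of the 5 genes it was the only one with a higher mean in EA2 tumors than in EA2 cultures, but the groups overlapped and the difference of 0.59 did not pass the test (exact permutation p = 0.0893).

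Of the 3 members tested with limma in EA2, all 3 were called lower, where 24.4% of the 11074 genes tested were called lower and 32.9% higher. Their median change was -1.69, beside 0.18 over all genes. Cxcl1 and Cxcl3 were lower with no overlap, as were 22.8% of all genes. With an exact p under 0.05, 24.2% of all genes were lower. Against EA2 in vitro library 2 alone, limma called 0 of the 3 members, and 1 of them, Cxcl1, had an unadjusted p under 0.05 (0.0297).

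**Figure D2:**
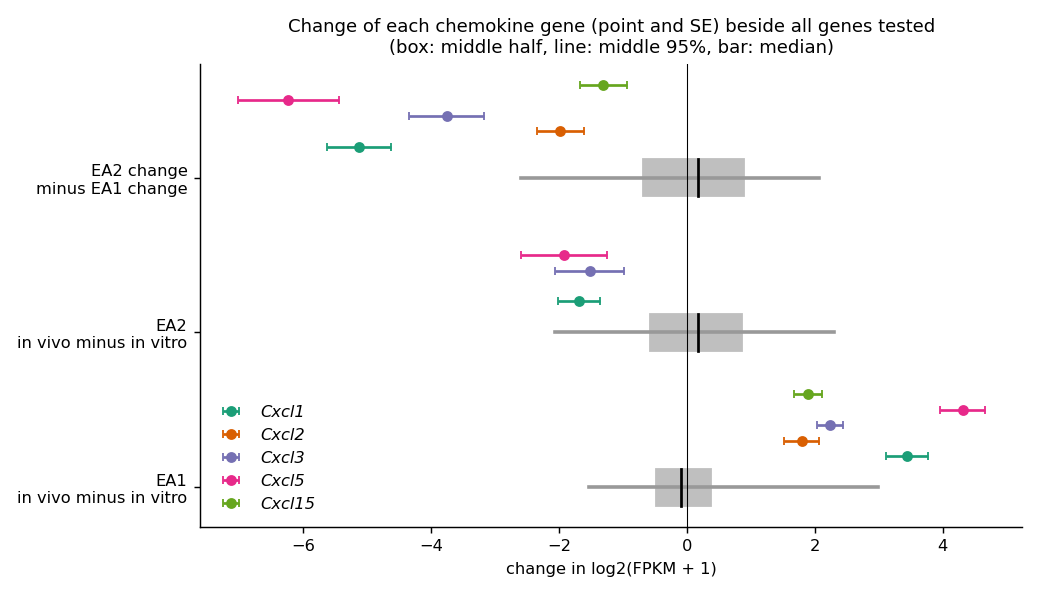
Change in log2(FPKM + 1) on the horizontal axis for each chemokine gene (point with SE) in EA1, in EA2 and as the EA2 change minus the EA1 change, beside the spread of all genes tested (grey). The members tested lie to the right of the median of all genes in EA1 (4.31 for Cxcl5) and to the left in EA2 (-1.92 for Cxcl5), and Cxcl2 and Cxcl15 have no EA2 point because they were not tested there.

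The change differed between the lines for all 5 genes when the difference itself was tested in a limma fit of all 18 libraries. The EA2 change was lower than the EA1 change by 6.23 for Cxcl5 (difference -6.23, SE 0.80, limma adjusted p = 6.76e-06) and by 5.13 for Cxcl1 (difference -5.13, SE 0.50, limma adjusted p = 5.05e-07). Cxcl3 had a difference of -3.76 (SE 0.58, limma adjusted p = 3.98e-05), Cxcl2 of -1.98 (SE 0.36, limma adjusted p = 0.000172) and Cxcl15 of -1.31 (SE 0.37, limma adjusted p = 0.00536). Of the 11930 genes tested, 27.1% were called with a lower change in EA2 and 36.3% with a higher one. The median difference of the 5 members was -3.76, beside 0.18 over all genes. Cxcl2 and Cxcl15 entered this test only through their EA1 tumor values, so their being called adds nothing to how they were let in. With no filter the limma adjusted p of the difference was 0.000809 for Cxcl2 and 0.0152 for Cxcl15. For Cxcl2, Cxcl3 and Cxcl15, which were near 0 in EA1 cultures, this test also sets levels from separately made tables against each other.

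For Cxcl15 the mean was higher in tumors in both lines, though the EA2 difference did not pass its test, and against EA2 in vitro library 2 alone the difference between the lines was not called (-1.13, limma adjusted p = 0.0870). Cxcl1, Cxcl3 and Cxcl5, the 3 members tested in both lines, were each called higher in EA1 and lower in EA2, as were 432 of 10334 genes (4.18%). This count rests on the EA2 calls of Cxcl3 and Cxcl5, which were lost in the alternatives named above. With a spread of its own for each line the adjusted p of the difference lay between 2.84e-05 for Cxcl1 and 0.0347 for Cxcl15.

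Within a library, FPKM can be set side by side between genes. In EA1 cultures the 5 genes summed to between 3.37 and 5.15 FPKM, of which Cxcl1 made up 72.4% to 87.1%. In EA1 tumors the sum was 61.9 to 176 FPKM, and Cxcl5 and Cxcl1 were close in level. Cxcl5 was at 0.0847 to 0.312 times Cxcl1 in EA1 cultures and at 0.261 to 1.59 times Cxcl1 in EA1 tumors. Tumor libraries 4 and 5, with ratios of 0.261 and 0.411, were the low ones. The other 3 genes followed at mean levels of 4.30 (Cxcl3), 3.17 (Cxcl15) and 2.93 FPKM (Cxcl2), with ranges that overlapped.

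In EA2, Cxcl5 led the sum in 7 of 8 libraries. It made up 63.7% to 69.1% of 81.6 to 265 FPKM in cultures, where it was at 2.21 to 2.72 times Cxcl1 in every library. In tumor libraries 1 to 4 it made up 65.2% to 77.4%. Tumor library 5 stood apart, with 24.4% Cxcl5 and 74.0% Cxcl1 of a sum of 20.2 FPKM. In that library Cxcl3, Ppbp and Pf4 were listed at 0, as was Pf4 in tumor library 2. Cdh1, the epithelial cadherin, was at 5.05 FPKM in library 5, against 22.3 to 23.3 in the other EA2 tumors. The EA2 cultures had Cdh1 at 5.54 to 7.48 FPKM.

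**Figure D3:**
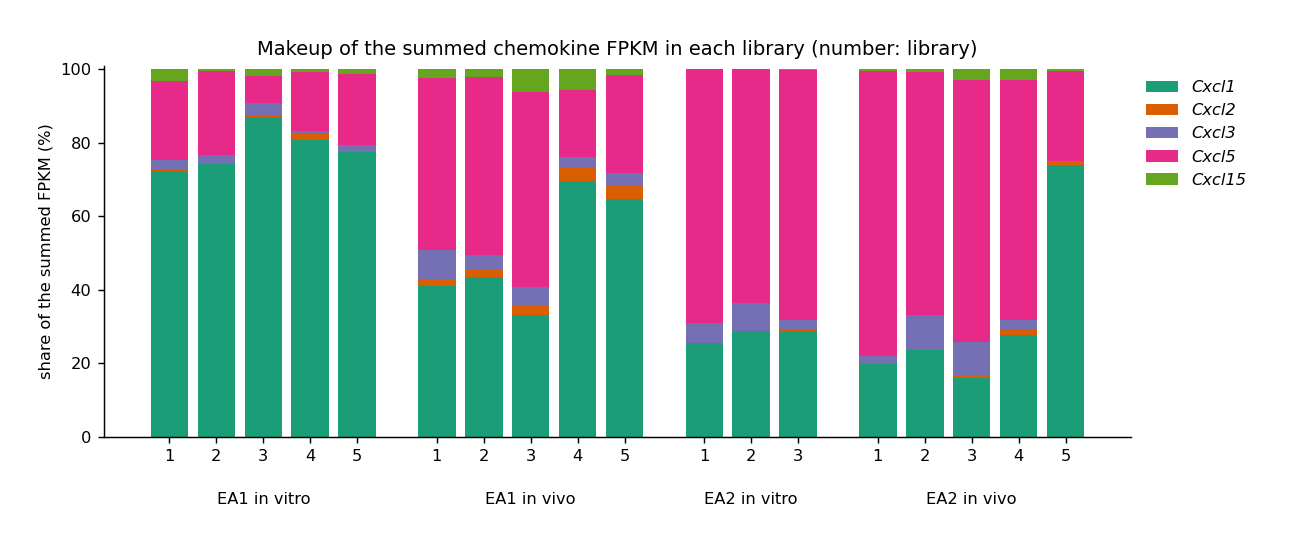
Share of each gene in the summed FPKM of the 5 chemokine genes (vertical axis, percent) for each of the 18 libraries, grouped by line and condition. Cxcl1 (green) fills 72.4% to 87.1% of the EA1 cultures, Cxcl5 (pink) fills 63.7% to 69.1% of the EA2 cultures, and EA2 tumor library 5 is the one EA2 library in which Cxcl1 leads.

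Ppbp and Pf4, the platelet chemokine genes of the same cluster, are neighbours that do not belong to the 5. Pf4, known from platelets, was at the floor of 0.01 in all EA1 cultures and at 3.09, 3.06, 1.99, 2.61 and 3.07 FPKM in EA1 tumors (log2 change 1.89, SE 0.10, limma adjusted p = 6.78e-08). Pf4 passed the EA1 filter only through these tumor values. In EA2 it was at most 0.607 FPKM and not tested. Ppbp, the other platelet gene, was at 4.05, 11.6 and 4.73 FPKM in EA2 cultures and at 0.963, 1.85, 3.23, 1.13 and 0 FPKM in EA2 tumors. Ppbp thus fell in EA2 with no overlap (log2 change -1.70, SE 0.44, limma adjusted p = 0.00727, and 0.0642 with no filter). In EA1 it was at most 0.200 FPKM in cultures and at 0.615 to 1.63 in tumors, and did not pass the filter (exact permutation p = 0.0079).

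**Figure D4:**
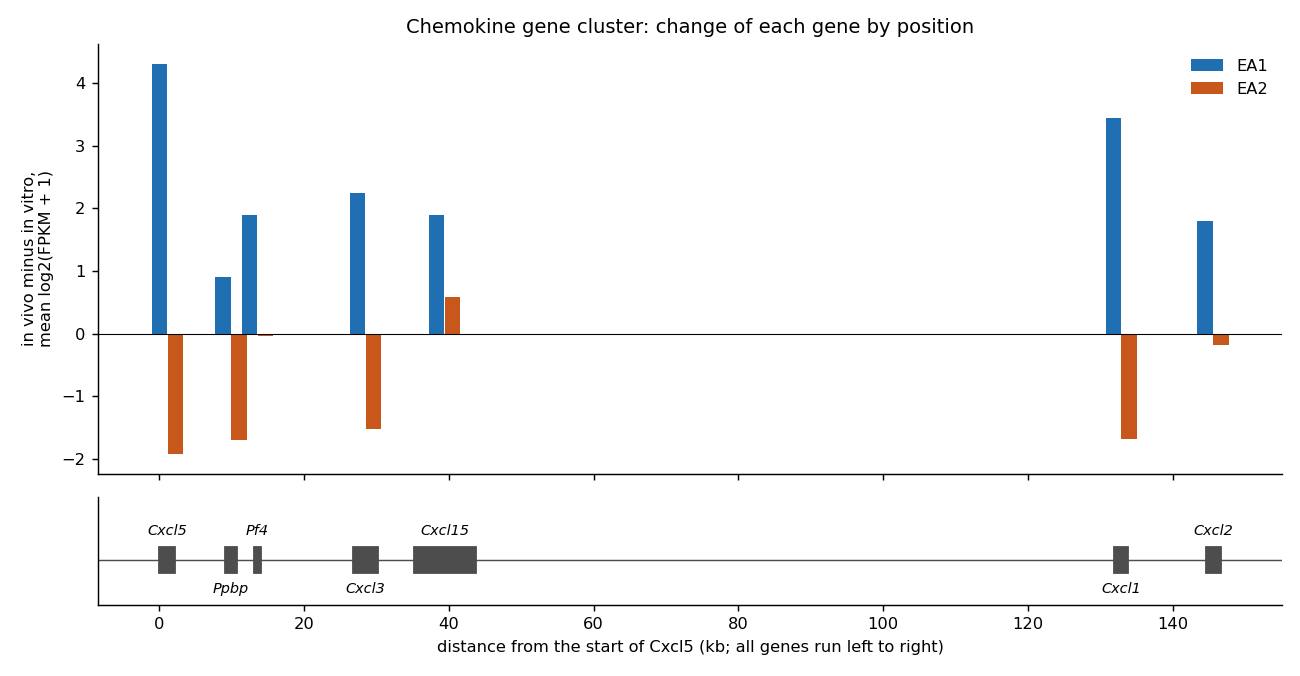
Difference of mean log2(FPKM + 1), in vivo minus in vitro, for the 7 genes of the chemokine cluster, placed by distance from the start of Cxcl5 (horizontal axis, kb) with a map of the genes under it. All 7 blue bars (EA1) point up, and the orange bars (EA2) point down for Cxcl5 (-1.92), Ppbp (-1.70), Cxcl3 (-1.52) and Cxcl1 (-1.69), are near 0 for Pf4 and Cxcl2, and point up for Cxcl15 (0.59).

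The receptors for these chemokines were nearly absent. Cxcr1, Cxcr2 and Ackr1, a receptor that binds chemokines without signalling, were at most 0.354 FPKM in any of the 18 libraries. None of them was tested.

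Among the genes tested that act upstream of the chemokines, Nfkbiz was the only one called higher in EA1 and lower in EA2, as described further on. Over all genes tested in both lines, 432 of 10334 (4.18%) were called in these directions. The EA1 call of Nfkbiz was kept in 11 of 18 alternatives. Of 9 receptors for the inducing cytokines and bacterial products, 5 were tested in EA1 (3 higher, 1 lower) and 7 in EA2 (4 higher, 0 lower). Tnfrsf1a, the main TNF receptor, rose by 1.12 in EA1 (limma adjusted p = 1.50e-07) and by 1.59 in EA2 (limma adjusted p = 0.000747). Tlr4, the receptor for bacterial lipopolysaccharide, rose by 1.14 in EA1 (limma adjusted p = 1.08e-05) and Il17rc, a subunit of the IL-17 receptor, by 1.84 in EA2 (limma adjusted p = 8.59e-05). Il17rc also rose in EA1 (0.79, limma adjusted p = 2.33e-06), while Tlr4 was not called in EA2 (0.25, limma adjusted p = 0.304). All 5 adaptors were tested in both lines, with 3 higher and 1 lower in EA1 and 5 higher in EA2. Myd88, the adaptor of IL-1 and Toll-like receptors, rose in both lines (1.13 and 0.81, limma adjusted p = 3.62e-07 and 0.0111). The EA2 call of Myd88 was lost without in vitro library 3 or against in vitro library 2 alone (highest adjusted p 0.0917). Tradd, a TNF receptor adaptor, rose by 0.46 in EA1 (limma adjusted p = 0.00179), and Irak1, a kinase of the IL-1 pathway, by 0.71 in EA2 (limma adjusted p = 0.0299), a call that 9 of 17 alternatives did not keep. In EA1 Irak1 fell by 0.20 (limma adjusted p = 0.00662). That call was lost under median-of-ratios scaling and quantile normalization (highest limma adjusted p 0.427).

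Of the 6 genes of NF-kappaB factors, EA1 tumors had 3 higher and 2 lower, and EA2 tumors 4 higher and 1 lower. The 1 that fell in EA2 was Nfkbiz, which encodes IkappaB-zeta, a nuclear cofactor needed for a subset of NF-kappaB targets. Nfkbiz was at 13.6, 20.6, 20.4, 30.9 and 23.6 FPKM in EA1 cultures and at 24.1, 50.1, 26.2, 26.8 and 57.7 FPKM in EA1 tumors. These groups overlapped, with tumor library 5 highest, as for Cxcl1. In EA2 it was at 37.9, 22.1 and 25.8 FPKM in cultures and at 7.69, 9.87, 7.10, 6.78 and 12.8 FPKM in tumors, without overlap. EA2 tumor library 5, the highest for Nfkbiz, was the lowest EA2 tumor library for Cxcl5 (4.94 FPKM) and Cxcl3 (0). Cxcl1 was at 15.0 FPKM in that library, where the EA2 tumors ranged from 9.16 to 16.0. Nfkbiz was thus called in the same directions as Cxcl1, Cxcl3 and Cxcl5, as were 4.18% of the genes tested in both lines. Its change was 0.69 in EA1 (SE 0.28, limma adjusted p = 0.0432) and -1.59 in EA2 (SE 0.25, limma adjusted p = 0.000486). The difference of -2.27 (SE 0.39, limma adjusted p = 0.000102) was called in 28 of 28 alternatives, the EA2 fall in 17 of 17 and the EA1 rise in 11 of 18. The EA1 call was lost without in vitro library 1, 2, 3 or 5, without in vivo library 2 or 5, and with no filter (highest adjusted p 0.110). Nfkb2, a subunit of the alternative NF-kappaB pathway, rose by 1.60 in EA2 (limma adjusted p = 0.000773), and Rel, another subunit, fell by 0.66 in EA1 (limma adjusted p = 0.000471).

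Among 4 NF-kappaB inhibitors, which are themselves NF-kappaB targets, Nfkbia and Nfkbie rose in both lines. Nfkbia changed by 2.32 in EA1 and 1.89 in EA2 (limma adjusted p = 2.68e-07 and 9.48e-05), and Nfkbie by 1.45 and 1.59 (limma adjusted p = 3.92e-08 and 0.000591). Tnfaip3, the gene of the ubiquitin-editing inhibitor A20 and outside the largest changes of its list, was named after its values were seen: it changed by -0.05 in EA1 (limma adjusted p = 0.858) and fell by 1.20 in EA2 (limma adjusted p = 0.00129). Its difference between the lines was -1.16 (limma adjusted p = 0.00517), with an adjusted p of 0.0532 when each line had a spread of its own.

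Zfp36 and Zfp36l1, whose proteins bind AU-rich mRNAs and start their decay, rose in both lines. Zfp36, whose protein is tristetraprolin, was at 16.4 to 30.3 FPKM in EA1 cultures and 207 to 536 in EA1 tumors, and at 4.58 to 7.51 FPKM in EA2 cultures and 15.8 to 66.5 in EA2 tumors. Neither line showed an overlap. The changes were 3.89 in EA1 (limma adjusted p = 2.57e-07) and 2.18 in EA2 (limma adjusted p = 0.000818, and 0.0644 against EA2 in vitro library 2 alone). Zfp36l1, a relative of Zfp36, rose by 1.77 and 2.82 (limma adjusted p = 4.35e-08 and 6.67e-05). Of the 5 decay factors, EA1 tumors had 2 higher and 1 lower, and EA2 tumors 3 higher. Both mRNA stabilizers fell in EA1, Arid5a with a change of -1.46 and Elavl1 with one of -0.56 (limma adjusted p = 0.000368 and 3.82e-06), and neither was called in EA2.

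**Figure D5:**
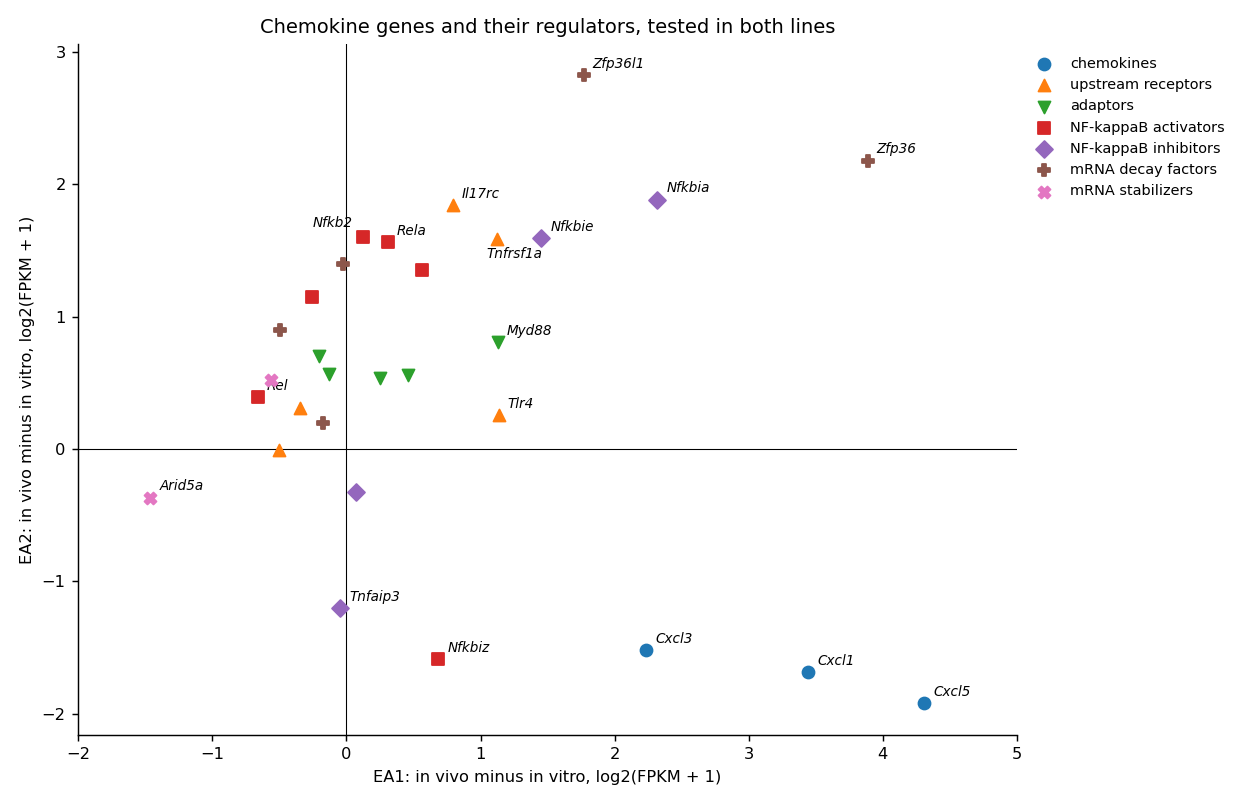
Change in EA1 (horizontal axis) against change in EA2 (vertical axis), both in vivo minus in vitro on the log2(FPKM + 1) scale, for chemokine genes and their regulators tested in both lines, with 1 symbol per gene. Cxcl1, Cxcl3 and Cxcl5 sit at the lower right with Nfkbiz (0.69 and -1.59) nearer the middle, while Zfp36, Zfp36l1, Nfkbia and Nfkbie sit at the upper right.

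Of 6 secreted proteins often induced with these chemokines, 2 were tested in EA1 and 4 in EA2. Csf2, the gene of the growth factor GM-CSF, was at 154, 114 and 85.5 FPKM in EA2 cultures and at 1.49, 1.29, 2.497, 2.76 and 0.966 FPKM in EA2 tumors. Csf2 therefore fell far more than the chemokines in EA2 (log2 change -5.41, SE 0.27, limma adjusted p = 9.82e-07), while in EA1 it was between 0.555 and 3.15 FPKM in all libraries and changed by 0.12 (limma adjusted p = 0.692). Lcn2, the gene of the antibacterial protein lipocalin 2, rose in both lines, by 6.19 in EA1 and 4.76 in EA2 (limma adjusted p = 4.66e-08 and 0.000222). In EA1 cultures Lcn2 was at most 0.303 FPKM, so it passed the EA1 filter only through its tumor values.

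Genes with the most similar profile over the 18 libraries were found by the root mean square difference of log2(FPKM + 1), after each line was centred on its own mean, among 10334 genes. Nearest to Cxcl1 were Clec2d (0.68), Sord (0.71) and Cyp3a13 (0.717), where the median over all genes was 1.59. Cxcl3 stood at rank 17 and Cxcl5 at rank 20 from Cxcl1. Nearest to Cxcl5 were Tifa (0.752), Kcne3 (0.777) and Cd53 (0.867), with Cxcl1 at rank 6 and Cxcl3 at rank 8. Nearest to Cxcl3 were Rbp2 (0.41), Tmem71 (0.537) and Tnfsf9 (0.559), with Cxcl1 at rank 323 and Cxcl5 at rank 631. These libraries share their 4 groups, so likeness follows the group means and is a description.

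GFP-positive host cells were sorted out, and most lists of host cell markers still had higher sums in tumors than in cultures. Of 12 neutrophil markers, 11 were analysed. They summed to 0.127 to 0.418 FPKM in EA1 cultures and 15.8 to 57.9 in EA1 tumors, and to 0.306 to 1.41 FPKM and 2.39 to 7.57 in EA2. The highest EA1 sum was in tumor library 1, the lowest EA1 tumor library for Cxcl1, Cxcl2 and Cxcl15. In that library Cxcl3 was at 5.10 FPKM, where the EA1 tumors ranged from 1.89 to 5.88. Cxcl5 was at 29.9 FPKM there, where the EA1 tumors ranged from 11.3 to 49.4. The granule gene Ltf and the alarmin genes S100a8 and S100a9 were called higher in EA1 tumors (4.45, 2.33 and 2.26). They passed the filter only through their tumor values. Ltf had the largest tumor mean of the list in EA1, 24.2 FPKM. Retnlg, Mmp8, Mmp9 and Csf3r did not pass the EA1 filter. They were higher in EA1 tumors with no overlap (tumor means 1.42, 0.361, 0.802 and 0.127 FPKM). The granule genes Mpo, Elane, Camp and Ngp were below 0.1 FPKM in every EA1 library, and Csf3r, Mpo and Ngp in every EA2 library. In EA2, S100a9 alone was higher in tumors with no overlap (means 0.0185 and 1.02 FPKM), and it was not tested there. Lymphocyte markers summed to at most 2.90 FPKM. The 10 macrophage markers summed to 25.6 to 38.0 FPKM in EA1 cultures and 90.0 to 185 in EA1 tumors. Tumor library 5 had the highest of these sums, as it had the highest Cxcl1, Cxcl2 and Cxcl3, but not Cxcl5 or Cxcl15. In EA2 they summed to 16.1 to 47.1 FPKM in cultures and 12.5 to 113 in tumors, and the ranges overlapped. Of the macrophage markers, 6 were tested in EA1 (5 higher, 1 lower) and 3 in EA2 (1 higher, 1 lower). Over all genes tested, 30.9% were called higher in EA1 and 32.9% in EA2. Lyz2 was called higher in both lines (6.37 and 4.50) and Mrc1, which made up most of the culture sums, lower (-2.17 and -2.06). Cd68, C1qa, C1qb and C1qc were also called higher in EA1 (1.85, 1.87, 1.81 and 1.88). Lyz2 was at most 0.253 FPKM in any culture, so it passed the filter in both lines only through its tumor values. The same held in EA1 for C1qa, C1qb and C1qc, at most 0.0317 FPKM in EA1 cultures. The 5 endothelial markers summed to 0.0840 to 0.165 and 15.9 to 46.7 FPKM in EA1, and to 0.177 to 0.454 and 0.542 to 10.4 FPKM in EA2. The 6 fibroblast markers summed to 2.28 to 4.10 FPKM in EA1 cultures and 149 to 2630 in EA1 tumors. The highest of these sums was in tumor library 4, the lowest for Cxcl3 and Cxcl5 but not for Cxcl1, Cxcl2 or Cxcl15. In EA2 the fibroblast markers summed to 0.483 to 21.4 FPKM in cultures and 343 to 798 in tumors. In EA2 most of these sums was Dcn, with a tumor mean of 506 FPKM, against 25.8 for Col1a1 and 12.4 for Col3a1. In EA1 tumors the means were 194 for Dcn, 234 for Col1a1 and 394 for Col3a1. Lum was at most 0.108 FPKM in EA2 and had a mean of 136 in EA1 tumors. The part of host cells in the chemokine values was not tested.

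For Cxcl15 the markers of lung epithelium are the closest measure. The 8 alveolar type 2 markers summed to 25.7 to 39.0 FPKM in EA1 cultures and 63.3 to 247 in EA1 tumors, and to 10.4 to 23.95 and 23.7 to 48.5 FPKM in EA2. Most of the culture sums was Etv5, a transcription factor of these cells (mean 29.0 FPKM in EA1 and 16.3 in EA2), which fell in EA1 tumors (-0.80), while the surfactant genes Sftpc, Sftpa1, Sftpb and Sftpd were at most 0.153 FPKM in any culture. The 3 club cell markers summed to 0.412 to 0.955 and 246 to 939 FPKM in EA1, and to 0 to 0.0191 and 14.9 to 166 FPKM in EA2. Sftpc, the surfactant gene of alveolar type 2 cells, was at 20.5, 39.7, 174, 73.2 and 35.8 FPKM in EA1 tumors and at 0.312, 0.821, 10.2, 16.5 and 0.700 FPKM in EA2 tumors. EA1 tumor library 3 was the highest both for Sftpc and for Cxcl15, and EA2 tumor libraries 3 and 4 were the highest pair for both genes. The part of host epithelium in the Cxcl15 values was not tested.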

How the data were processed

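RNA of EA1 and EA2 cells was measured in 18 polyA libraries. According to the study's methods, reads were trimmed with Trim Galore, aligned to mm10 with STAR and quantified with Cufflinks (version 2.0.2 in the submitters' processing notes, a later one in the methods). The authors deposited FPKM per gene in 1 table per line, with the standard normalization of Cufflinks. No source used here gives their gene annotation. Left out were 6 EA1 genes with a status word in place of a value and 27 EA2 rows whose name is a date.

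Tumor libraries were tested against culture libraries, separately for each line, by limma 3.58.1 with a trend (R 4.3.3, two-sided) on log2(FPKM + 1). Genes entered with 1 FPKM or more in 5 EA1 or 3 EA2 libraries, with Benjamini-Hochberg adjustment at 0.05. The difference between the lines was an interaction term over all 18 libraries. Single members were also tested by an exact permutation test, two-sided, on the difference of mean log2(FPKM + 1). Replicates are described as independent, and p-values measure the spread between these libraries. Library numbers did not pair the samples (correlations of same-numbered libraries between -0.131 and 0.0767), so no block was used.

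The members and the gene lists were chosen with earlier results of these data known. Named genes are the 5 members, Ppbp, Pf4, Cxcr1, Cxcr2, Ackr1, up to 2 called genes per list and line with the largest change, and the 3 nearest profiles. Tnfaip3 and single marker genes were named after their values were seen, apart from markers below 0.1 FPKM in every library, which the rule covers. Marker lists are given by counts and summed FPKM. Transcript sequences and positions are from GENCODE M21 (GRCm38, the same assembly as mm10) and promoters from RefSeq. The fits were tested on simulated data. Alternatives were median-of-ratios and quantile scaling, a pseudocount of 0.1, a filter of 5 FPKM or none, robust empirical Bayes, a replicate block, removal of the trend with transcript length (loess span 0.3, lengths found for at least 96.4% of genes), EA2 in vitro library 2 alone and each library left out. A spread of its own for each line was added after seeing the data. FPKM hold no fragment counts, so no counting interval is given. Figures were made with matplotlib 3.10.9 in Python 3.11.15.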

Additional observations from a re-analysis of the deposited data

Results flagged for a closer look

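In the EA1 cultures, Cxcl2 in library 4 (0.0964 FPKM) stood apart from the other 4, which were all at the floor of 0.01. With 4 values tied at a floor, any value above it stands apart in this way, so nothing is read from it. It was the only one of 15 groups examined.

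The change from culture to tumor differed between EA1 and EA2 for each of the 5 chemokine genes by the interaction test (EA2 change minus EA1 change, limma). The difference was -6.23 for Cxcl5 and -5.13 for Cxcl1, with called changes in opposite directions in the lines, of which the EA2 call of Cxcl5 was lost in 7 of 17 alternatives. It was -3.76 for Cxcl3, also in opposite directions, with an EA2 call lost in 10 of 17 alternatives. It was -1.98 for Cxcl2 and -1.31 for Cxcl15, neither of which was tested alone in EA2. Both entered the interaction test only through their EA1 tumor values.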

How the results depend on the processing

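In all, 34 results were recomputed under 597 alternatives, of which 548 kept the direction and the side of the threshold or, for a count of genes, stayed within 1.5 times. In EA1 the 5 members were called higher under each alternative except a filter of 5 FPKM, which let only 2 of them be tested and called both. In EA2 the 3 members called lower became 1 with no filter and 0 against EA2 in vitro library 2 alone, and 1 to 3 when 1 library was left out. The 5 members with a lower change in EA2 became 3 under the filter of 5 FPKM, which tested fewer genes. By the exact test, the 2 members lower in EA2 became 1 with a pseudocount of 0.1, and 1 to 2 with 1 library left out. The EA2 difference of Cxcl2 lay between -0.38 and 0.00039 with 1 library left out, turning its sign without EA2 in vitro replicate 3. Replicate numbers did not pair the samples, and with the replicate block 5, 2 and 5 members were called in EA1, EA2 and the difference, Cxcl3 in EA2 being lost (-0.83, limma adjusted p = 0.0560). Under median-of-ratios scaling the median over all genes went from -0.09 to 0.05 (EA1), from 0.18 to 0.02 (EA2) and from 0.18 to -0.10 (the difference). The calls of all genes then became 4307 higher and 3617 lower in EA1 (3459 and 4560 before) and 3381 higher and 4131 lower in the difference (4327 and 3230 before), while no member turned its direction. With no filter 5289 genes were higher in EA1, and against EA2 in vitro library 2 alone 1603 were higher and 1667 lower in EA2 (3643 and 2702 before) and 2517 higher in the difference. The cause of these shifts was not tested. The number of fragments behind a low FPKM is unknown, which limits what Cxcl2 and Cxcl15 can show.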
